A study of Homo sapiens with 8 samples.

Results

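LNCaP cells are an established human line from a lymph node metastasis of prostate cancer and respond to androgens. RNA was sequenced from these cells after 4 hours with 0.5 µM AT7519 (2 libraries) and from control cells (2 libraries). These 4 of the series' 8 libraries were chosen by their labels and make up the comparison described here. The other 4 come from cells given 40 µM OSMI-2, an inhibitor of O-GlcNAc transferase, alone or together with 0.5 µM AT7519, with 2 libraries each, and they enter the fit and the last comparison below. These doses follow the design text of the series, while the sample labels print them as mM, and what the control cells received is not stated. By its title the series concerns O-GlcNAc transferase inhibition and dependence on CDK9, and AT7519 alone against control gives the response to the kinase inhibitor by itself. Of 55737 genes in the table, 19205 reached a mean of 10 normalised counts across these 4 libraries and were tested.

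AT7519 is a small molecule that blocks several cyclin-dependent kinases (CDKs), CDK9 among them. CDK9 and cyclin T form P-TEFb, the kinase that phosphorylates RNA polymerase II, DSIF and NELF and so releases polymerase that has paused shortly after the start of a gene. In cells much of P-TEFb is held inactive in a particle of 7SK RNA with HEXIM1 or HEXIM2, which inhibit the kinase, MEPCE, which caps 7SK, and LARP7, which stabilises it. RNAs with short lives, such as those of immediate early genes, fall soonest when transcription is blocked, whereas long-lived RNAs can outlast a block of hours.

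The deposited values are read counts per gene divided by 1 factor per library, called normalised counts here. The 4 libraries held 92890671 to 154367238 reads assigned to genes, so that 1 read equals 0.588 to 1.27 normalised counts. All 15 markers of luminal prostate cells were present in both groups, and they made up 0.641% and 0.655% of the counts in control and 0.545% and 0.538% with AT7519. Markers of leukocytes summed to 11 to 17 normalised counts, and those of other cell types were present in part. Under 3 reads in both libraries of each group were 3 of 6 basal markers (KRT5 and TP63 among them), 4 of 7 neuroendocrine markers (CHGA among them), 3 of 4 endothelial markers (CDH5 among them) and COL1A2 and FAP among 8 mesenchymal markers. The mesenchymal markers, mostly FN1, summed to 45593 and 53457 normalised counts in control and 64485 and 83944 with AT7519. The basal markers, mostly ITGA6, summed to 7621 and 8223 and then 7210.1 and 7158. The endothelial markers, mostly VWF, summed to 1484 and 1375 and then 1409 and 1132, and the neuroendocrine markers, mostly ENO2, summed to 687 and 602 and then 895 and 741. Their part in the results was not tested. Mitochondrially encoded mRNAs took 4.69% and 4.45% of the counts in control and 7.04% and 6.57% with AT7519. Nothing in the labels says that the 2 libraries of a group came from separate cultures, so the p-values measure the spread between these libraries only. In bulk RNA a lower level in every cell and fewer cells with the RNA cannot be told apart.

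AT7519 changed the levels of most genes tested: 10310 of 19205 genes passed an adjusted p of 0.05 (53.7%), of which 5062 were higher (26.4%) and 5248 were lower (27.3%). Large changes were mostly falls. A log2 change of at least 1 was reached by 718 of the genes that rose (3.74% of those tested) and by 2316 of those that fell (12.1%), and a log2 change of at least 3 by 157 and 148. Between the 5th and 95th percentile the log2 changes ran from -1.67 to 0.97, with a median over all genes of -0.0013, against a median absolute difference between replicates of 0.14 in control and 0.18 with AT7519. The 2 control libraries did not overlap the 2 AT7519 libraries in 76.2% of the genes tested, so non-overlap by itself is the common state here. Of the 10310 called genes only 15 had overlapping groups, so non-overlap adds little to a call. All directions below are on the deposited scale, on which the median gene lies close to 0. On equal totals the median gene lay at -0.34 and 2041 genes were higher and 8326 lower, and on equal mitochondrial mRNAs it lay at -0.91 with 389 higher and 14550 lower. Which of these scales is closest to RNA per cell was not tested, and a modest rise is therefore a rise relative to the median gene.

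**Figure D1:**
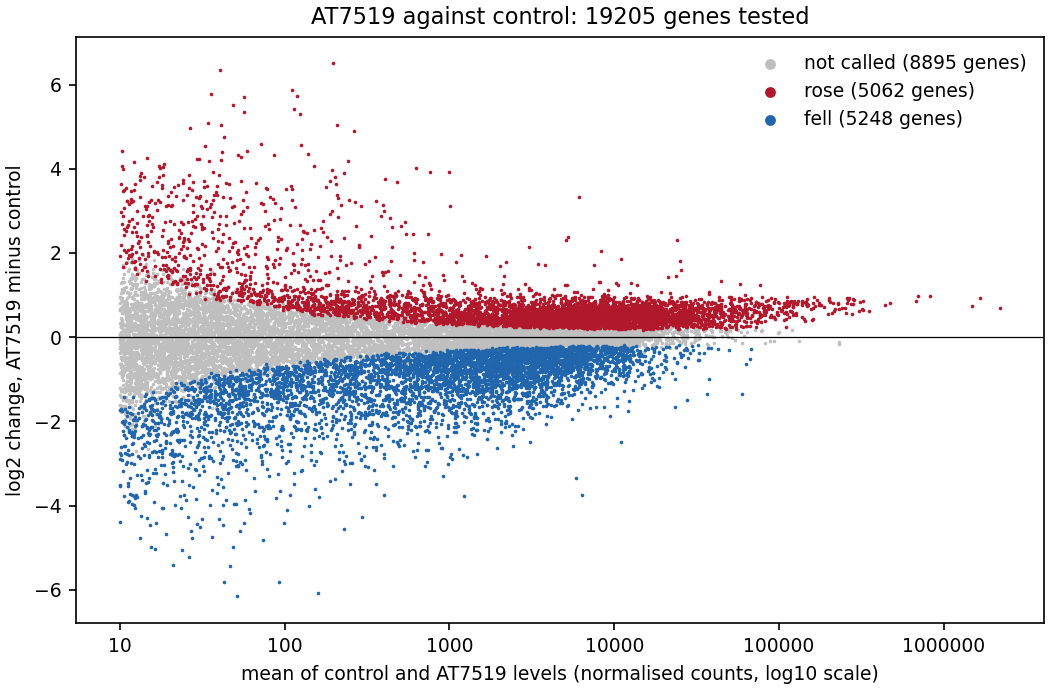
Log2 change with AT7519 (vertical axis) against the mean of the control and AT7519 levels in normalised counts (horizontal axis, log scale), 1 point per gene tested. Genes that rose (5062, red) and fell (5248, blue) were about equal in number, while 2316 genes fell and 718 rose by at least 1.

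Members of P-TEFb and its 7SK particle changed in both directions: 3 of 8 tested members rose and 3 fell. Over all genes 26.4% rose and 27.3% fell. The median log2 change of the 8 was 0.05, which turned negative on equal totals, on equal mitochondrial mRNAs and on quantile-normalised values. CDK9, the kinase, rose from 4872 and 4966 normalised counts in the control libraries to 8127 and 8640.2 with AT7519 (log2 change 0.77, SE 0.09, adjusted p = 7.1e-06). Both AT7519 libraries lay above both control libraries. Its partner CCNT2 rose from 7114 and 7508 to 9647 and 11149.7 (log2 change 0.50, adjusted p = 0.000222). CCNT2 was not called on equal totals (adjusted p = 0.154). Cyclin T1, encoded by CCNT1, stood at 10351 and 11128 in control and 12702 and 12517 with AT7519 and was not called (log2 change 0.23, adjusted p = 0.115). It was called higher with only the control and AT7519 libraries in the fit (adjusted p = 0.034) and without combination replicate 1 or 2 (adjusted p = 0.0233 and 0.0229). The 3 members that fell belong to the inhibitory particle. MEPCE, the 7SK capping enzyme, fell from 10631 and 10745 normalised counts in the control libraries to 1222 and 920.2 with AT7519 (log2 change -3.33, SE 0.12, adjusted p = 7.94e-10), a 10.1-fold lower level with AT7519. HEXIM1 fell from 6261 and 6719 to 2043 and 2124 (log2 change -1.64, SE 0.11, adjusted p = 6.22e-08) and its paralog HEXIM2 fell from 744 and 752 to 188 and 165 (log2 change -2.08, SE 0.17, adjusted p = 3.73e-07). In all 3 the AT7519 libraries lay below the control libraries. LARP7 stood at 7600.4 and 7972 in control and 8033 and 6362 with AT7519 and was not called (log2 change -0.12, adjusted p = 0.332), but was called lower without AT7519 replicate 1 (log2 change -0.29, adjusted p = 0.0224) and on equal totals (log2 change -0.47, adjusted p = 0.000963).

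**Figure D2:**
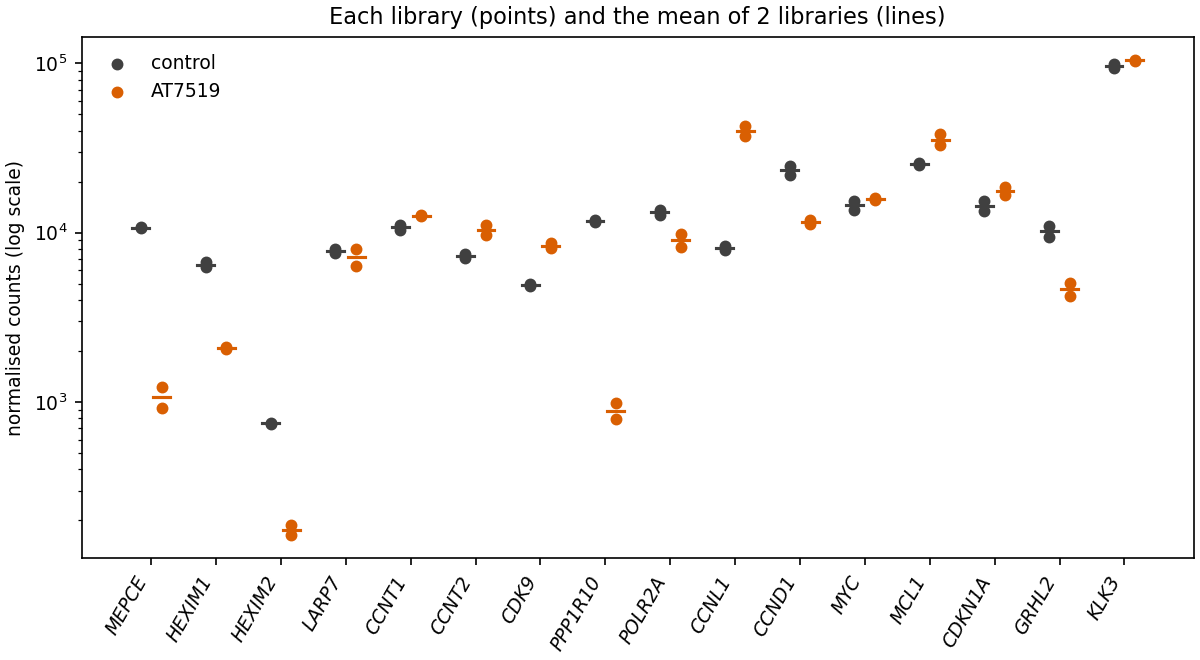
Normalised counts (vertical axis, log scale) of 16 genes in each control (dark) and AT7519 (orange) library, with a line at each group's mean. MEPCE, HEXIM1 and HEXIM2 lie lower with AT7519, CCNL1, CDK9 and MCL1 lie higher, and LARP7, CCNT1, MYC and KLK3 were not called; levels are not divided by gene length, so genes are compared with themselves only.

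The factors that work beside P-TEFb on elongating polymerase split by complex. In the super elongation complex, 2 of 11 tested members rose and 5 fell, beside 26.4% and 27.3% of all genes. The median log2 change of this complex was -0.22. Its scaffold AFF1 fell from 9873 and 10497 to 3779 and 4535 (log2 change -1.30, SE 0.10, adjusted p = 2.66e-07) and the elongation factor ELL2 fell from 4882 and 5949.5 to 2849 and 3342 (log2 change -0.80, adjusted p = 5.06e-05). Pausing and elongation factors leaned the other way, as 10 of 17 tested members rose and 2 fell, with a median log2 change of 0.31, a median that was negative on equal totals and on equal mitochondrial mRNAs. NELFCD, a subunit of the pausing factor NELF, rose from 13146 and 12782 to 19246 and 23351 (log2 change 0.71, adjusted p = 1.12e-05). Both members of this list that fell, LEO1 and CDC73, are subunits of the PAF1 complex, which travels with elongating polymerase. LEO1 fell from 10844 and 11753 to 6674 and 6272 (log2 change -0.80, SE 0.08, adjusted p = 1.81e-06). Among RNA polymerase II subunits 9 of 12 tested members rose and 2 fell, with a median log2 change of 0.53, which only equal mitochondrial mRNAs turned negative among the 4 other scales tried. The largest subunit was an exception: POLR2A, which carries the tail that CDK9 phosphorylates, fell from 13694 and 12698 normalised counts in the control libraries to 8266 and 9826 with AT7519 (log2 change -0.55, SE 0.09, adjusted p = 0.000146), and its groups did not overlap. The small subunit POLR2L rose from 10420.3 and 10644 to 18243 and 19508 (log2 change 0.84, adjusted p = 7.66e-07).

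Other kinases and cyclins of transcription changed in both directions: 7 of 15 tested members rose and 4 fell, with a median log2 change of 0.18, negative on equal totals and on equal mitochondrial mRNAs. CCNL1, a cyclin that binds CDK11 and acts in splicing, rose from 8369.7 and 7854 normalised counts in the control libraries to 37216 and 42853 with AT7519 (log2 change 2.30, SE 0.08, adjusted p = 7.94e-10). It was the gene of this list with the largest rise, 4.92-fold, and the libraries of the 2 groups lay far apart. Its relative CCNL2 rose from 13462 and 10194 to 19169 and 24121 (log2 change 0.88, adjusted p = 2.71e-05). CDK13, which phosphorylates elongating polymerase, fell from 4735 and 4643 to 1806 and 1691 (log2 change -1.42, SE 0.10, adjusted p = 7.83e-08). CDK7, the kinase of the initiation factor TFIIH, fell from 3634 and 3737 to 2277 and 1872 (log2 change -0.84, adjusted p = 0.000169), and the Mediator kinase CDK8 fell from 4358 and 4024 to 3156 and 2287 (log2 change -0.64, adjusted p = 0.00173). In Mediator, the bridge between activators and polymerase, 6 of 29 tested members rose and 10 fell, with a median log2 change of -0.11, which was positive on quantile-normalised values. Its counts were near the shares of all genes, of which 26.4% rose and 27.3% fell. MED13, which joins the kinase module to the core, fell from 11238 and 10389.9 to 3454 and 3243 (log2 change -1.69, SE 0.08, adjusted p = 7.39e-09), and MED26, a subunit that recruits elongation factors, rose from 699 and 675 to 1240.1 and 1345 (log2 change 0.91, adjusted p = 4.91e-05). In Integrator, which cuts nascent RNA near promoters, 4 of 14 tested members rose and 7 fell, with a median log2 change of -0.28. Its subunit INTS5 fell from 2749 and 2719 to 763 and 674 (log2 change -1.93, SE 0.12, adjusted p = 3.27e-08) and INTS2 fell from 6438 and 5751 to 2551 and 2521 (log2 change -1.26, adjusted p = 1.78e-07). Of the BET genes, whose proteins bind acetylated histones, BRD3 fell from 5844 and 6064 to 2778 and 2738 (log2 change -1.11, adjusted p = 8.87e-07) and BRD2 fell from 14802 and 14749 to 10154 and 9839 (log2 change -0.56, adjusted p = 7.12e-05).

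The genes with the largest changes were then taken at a mean of at least 500 normalised counts in the higher group. The 12 protein-coding genes that fell furthest were SOWAHB (-3.78), PPP1R10 (-3.74), FRAT1 (-3.74), TIGD5 (-3.50), MEPCE (-3.33), BCDIN3D (-3.31), ZSWIM3 (-3.15), ZBTB3 (-3.09), ZNF836 (-3.06), ZNF784 (-3.05), GJC1 (-3.05), SOWAHC (-3.0), with the log2 change in brackets. PPP1R10, which encodes the phosphatase subunit PNUTS that acts on elongation and termination, fell from 11608 and 11938 normalised counts in the control libraries to 794 and 981 with AT7519 (log2 change -3.74, SE 0.12, adjusted p = 3.51e-10). SOWAHB, an ankyrin repeat gene, fell from 2334 and 2219.8 to 207 and 131 (log2 change -3.78, adjusted p = 1.16e-08). BCDIN3D, an RNA methyltransferase, fell from 1723 and 1579 to 164 and 168 (log2 change -3.31, adjusted p = 5.47e-09). Zinc finger and BTB genes made up several of the rest, among them ZBTB3, which fell from 516 and 632 to 87.5 and 49.8 (log2 change -3.09, adjusted p = 3.7e-07). The 12 genes had a median of 2 exons and 3 had a single exon, against a median of 10 exons and 1.24% single-exon genes among 10156 coding genes tested at this level. None of the 12 had overlapping groups, which the choice of these genes required.

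The 12 largest rises were DDX47 (3.92), EIF4A1 (3.33), ZNF410 (2.61), NDUFV2 (2.46), RAB5C (2.46), RBM15 (2.37), CCNL1 (2.30), RBM4 (2.15), ZC3H12A (2.04), MRPL38 (1.98), EGLN2 (1.95), TMPPE (1.93). RBM15, an RNA-binding protein of the m6A methylation complex, rose from 1762 and 1646 normalised counts in the control libraries to 8616 and 9055 with AT7519 (log2 change 2.37, SE 0.11, adjusted p = 5.47e-09). ZC3H12A, a ribonuclease that degrades inflammatory mRNAs, rose from 3342 and 3148 to 11751 and 15216 (log2 change 2.04, adjusted p = 2.59e-07). RBM4, a splicing regulator, rose from 1109 and 1130.0 to 4797 and 5164 (log2 change 2.15, adjusted p = 5.41e-09). Of these 12 genes, 10 share exon bases with another gene on the same strand in GENCODE release 29, all but RBM15 and CCNL1. The share was 15.5% among coding genes at this level, 47.4% among the 76 of them that rose by at least 1 and 12.9% among the 888 that fell by at least 1. DDX47 and EIF4A1 share 36.5% and 48.6% of their exon bases in this way. How reads that fit more than 1 gene were counted is not given in the sources used here, and the part of shared exons in these rises was not tested.

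Promoters of 2 genes that fell and 2 that rose are shown for the sequence before the transcription start, where paused polymerase is first loaded. They were picked after their values were seen, as members with large changes and 1 promoter each in the RefSeq table, and they stand for no class. Each is the stretch of 250 bases before the start in GRCh38, on the gene's own strand and 5′ to 3′. Capitals mark any of 6 motifs on either strand: the binding site TATAAA of the general factor TBP, the cyclic AMP response element TGACGTCA, the GC-rich site GGGCGG of SP1, the site CCGGAAG of ETS factors, the E-box CACGTG, and the site CCAAT that NF-Y binds; a match describes letters only. HEXIM1 lies at chr17:45148225-45148474 on the plus strand, PPP1R10 at chr6:30617244-30617493 on the minus strand, RBM15 at chr1:110339127-110339376 on the plus strand and CCNL1 at chr3:157160148-157160397 on the minus strand.
HEXIM1: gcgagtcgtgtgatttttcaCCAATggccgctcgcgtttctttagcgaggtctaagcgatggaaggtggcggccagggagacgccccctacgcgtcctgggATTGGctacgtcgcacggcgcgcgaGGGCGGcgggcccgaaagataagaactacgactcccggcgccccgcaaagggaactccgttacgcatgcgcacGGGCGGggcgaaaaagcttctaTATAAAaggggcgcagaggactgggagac
PPP1R10: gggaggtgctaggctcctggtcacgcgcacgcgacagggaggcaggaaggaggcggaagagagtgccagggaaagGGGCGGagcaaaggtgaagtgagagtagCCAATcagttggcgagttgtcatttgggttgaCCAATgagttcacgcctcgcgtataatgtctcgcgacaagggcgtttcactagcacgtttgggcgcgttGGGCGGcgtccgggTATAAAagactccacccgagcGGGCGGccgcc
RBM15: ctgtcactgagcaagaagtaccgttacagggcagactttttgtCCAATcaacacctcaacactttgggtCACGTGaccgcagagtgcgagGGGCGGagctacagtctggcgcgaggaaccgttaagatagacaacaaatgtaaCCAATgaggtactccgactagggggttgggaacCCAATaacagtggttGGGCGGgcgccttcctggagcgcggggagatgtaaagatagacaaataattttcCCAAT
CCNL1: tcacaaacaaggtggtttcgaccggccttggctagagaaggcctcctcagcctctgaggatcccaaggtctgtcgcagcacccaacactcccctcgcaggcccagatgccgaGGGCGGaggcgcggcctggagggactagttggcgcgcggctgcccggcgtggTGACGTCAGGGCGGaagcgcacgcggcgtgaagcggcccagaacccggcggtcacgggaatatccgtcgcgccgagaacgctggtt
HEXIM1 and PPP1R10, which fell, both carry TATAAA, 29 and 32 bases before the start, with sites of SP1 and NF-Y. RBM15, which rose, also carries sites of both, 2 of SP1 and 4 of NF-Y, with 1 E-box. CCNL1, which also rose, carries 2 SP1 sites, and a cyclic AMP response element stands next to an SP1 site. Neither of the genes that rose carries TATAAA. Over the 7462 coding genes tested that have a single listed promoter, TATAAA was found in 5.51%, TGACGTCA in 3.10%, GGGCGG in 69.0%, CCGGAAG in 17.4%, CACGTG in 9.11% and CCAAT in 36.5%. TATAAA stood in 10.1% of 79 promoters of genes that rose by at least 1 and in 6.50% of 815 of genes that fell by at least 1. The ETS motif stood in 29.1% and 13.6% of the same promoters, and the SP1 motif in 50.6% and 67.7%.

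Cell cycle genes did not move as a block. Among the CDKs of the cell cycle, CDK4, which drives G1, rose from 17448 and 17736 to 28475 and 30246 (log2 change 0.74, adjusted p = 1.75e-05) and CDK1, which drives mitosis, rose from 29086 and 34162 to 50411 and 48219 (log2 change 0.65, adjusted p = 2.84e-05). CDK1 was not called on quantile-normalised values (adjusted p = 0.0556). Of the 4 genes of this list 3 rose and 1 fell, with a median of 0.44, negative on equal mitochondrial mRNAs. Among cyclins 3 of 8 tested members rose and 4 fell, with a median log2 change of -0.24. Over all genes 26.4% rose and 27.3% fell. CCND1, the G1 cyclin D1, fell from 21871 and 24885 normalised counts in the control libraries to 11942 and 11187 with AT7519 (log2 change -1.01, SE 0.10, adjusted p = 1.18e-06), a 2.02-fold lower level with groups that did not overlap. Cyclin E2, encoded by CCNE2, fell from 5637 and 5694 to 2359 and 1870.0 (log2 change -1.43, adjusted p = 5.73e-07), and CCNF fell from 4302 and 3724 to 1533 and 1639 (log2 change -1.34, adjusted p = 7.29e-07). Among the inhibitors of CDKs, CDKN1A, which encodes p21, rose from 13401 and 15414 to 16751 and 18733 (log2 change 0.30, adjusted p = 0.0088), CDKN1B, which encodes p27, fell from 7954 and 8103 to 6674 and 5234 (log2 change -0.44, adjusted p = 0.00621) and CDKN2B fell from 173 and 172 to 87.5 and 70.2 (log2 change -1.13, adjusted p = 0.00123). CDKN1A lost its call without control replicate 1 (adjusted p = 0.123) or AT7519 replicate 2 (adjusted p = 0.0818) and turned to -0.0415 on equal totals. CDKN1B lost its call without AT7519 replicate 2 (adjusted p = 0.0859), and neither was called by limma without a trend (adjusted p = 0.0658 and 0.0699) nor CDKN1A on quantile-normalised values (adjusted p = 0.837). Genes of G1/S and replication (7 of 31 rose, 10 fell, median 0.08, negative on all scales tried except upper quartiles) and of G2 and mitosis (6 of 29 rose, 10 fell, median -0.07) were close to the shares of all genes. The mitotic kinase AURKA fell from 6611 and 6689 to 2438 and 2187 (log2 change -1.53, SE 0.10, adjusted p = 7.47e-08) and CENPA, the centromeric histone, fell from 1663 and 1451 to 774 and 727 (log2 change -1.05, adjusted p = 1.44e-05).

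Of the AP-1 and EGR immediate early factors, which cells switch on within minutes of a stimulus, 1 of 14 tested members rose and 9 fell, with a median log2 change of -1.54, against -0.0013 over all genes. FOSL2, an AP-1 subunit, fell from 2478 and 2243 normalised counts in the control libraries to 623 and 419 with AT7519 (log2 change -2.20, SE 0.16, adjusted p = 1.25e-07). FOSB fell from 131 and 125 to 16.5 and 26.4 (log2 change -2.56, SE 0.32, adjusted p = 1.41e-05) and IER5 fell from 737 and 769 to 176 and 186 (log2 change -2.05, adjusted p = 0.000245). JUND, the AP-1 subunit that is made constitutively, was the 1 member that rose, from 4735 and 3017 to 8169 and 6262 (log2 change 0.92, adjusted p = 0.00028). In none of these 4 genes did the groups overlap, which also held for 76.2% of all genes tested. A further 6 genes of the list, FOSL1, EGR2, EGR3, EGR4, IER3, NR4A3, were below the level needed for testing. MYC, whose RNA is short-lived, stood at 13649 and 15319 in control and 15662 and 15943 with AT7519 and was not called (log2 change 0.13, SE 0.08, adjusted p = 0.185). It was called lower on equal totals (log2 change -0.22, adjusted p = 0.0285) and on equal mitochondrial mRNAs (log2 change -0.79, adjusted p = 1.4e-09).

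Kruppel-like factors, zinc finger proteins of growth and differentiation, showed the same lean: 2 of 13 tested members rose and 10 fell, with a median log2 change of -1.16. KLF3 fell from 4281 and 4203 to 1037 and 918 (log2 change -2.12, SE 0.12, adjusted p = 2.22e-08) and KLF5 fell from 195 and 249 to 41.8 and 53.9 (log2 change -2.19, adjusted p = 2.12e-05). The inhibitors that feed back on MAP kinase signalling followed, as 2 of 14 tested members rose and 11 fell, with a median log2 change of -0.84. DUSP16, a phosphatase of JNK, fell from 6071 and 6121 to 1874 and 1498 (log2 change -1.86, SE 0.11, adjusted p = 2.78e-08) and DUSP5, a nuclear phosphatase of ERK, fell from 126 and 129 to 27.9 and 19.3 (log2 change -2.41, adjusted p = 7.17e-05). DUSP1 went the other way and rose from 1556 and 1445 to 1997 and 2300.1 (log2 change 0.52, adjusted p = 0.00157). DUSP1 was not called on equal totals (adjusted p = 0.236). Among the antiproliferative BTG/TOB and the GADD45 genes 1 of 8 tested members rose and 5 fell, with a median log2 change of -0.50. GADD45B, a stress-inducible gene, fell from 264 and 243 to 45.6 and 23.4 (log2 change -2.91, SE 0.32, adjusted p = 4.03e-06), and BTG1 fell from 4866 and 5063 to 2303 and 1654 (log2 change -1.35, adjusted p = 9.57e-05).

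Of Wnt receptors and feedback genes 1 of 19 tested members rose and 16 fell, with a median log2 change of -1.11. FZD8, a Wnt receptor, fell from 426 and 452 normalised counts in the control libraries to 20.3 and 15.3 with AT7519 (log2 change -4.56, SE 0.44, adjusted p = 1.15e-06), a 23.6-fold lower level. FRAT1, which inhibits GSK3, fell from 773 and 712 to 68.5 and 43.7 (log2 change -3.74, adjusted p = 2.42e-05) and the receptor FZD7 fell from 283 and 211 to 46.9 and 35.6 (log2 change -2.55, adjusted p = 1.05e-05). The coreceptor LRP5 was the member that rose, from 6026 and 6207 to 8279 and 8139.9 (log2 change 0.42, adjusted p = 0.00691). It was not called on equal totals (adjusted p = 0.58) and by limma without a trend (adjusted p = 0.0735). Of BMP and TGF-beta targets 1 of 12 tested members rose and 9 fell, with a median log2 change of -0.89. SMAD6, an inhibitory SMAD, fell from 463 and 546 to 88.8 and 131 (log2 change -2.21, SE 0.21, adjusted p = 1.01e-06), TGIF1, a corepressor of SMADs, fell from 2709 and 3053 to 1162 and 988 (log2 change -1.42, adjusted p = 8.92e-07) and ID2 fell from 671 and 870.0 to 318 and 289.8 (log2 change -1.33, adjusted p = 0.000296), whereas its relative ID3 rose from 747 and 1194 to 2622 and 3555 (log2 change 1.69, adjusted p = 0.000768). Hippo pathway targets and effectors held 8 falls and 0 rises among 11 members, with a median of -0.47; AMOTL2 fell from 552 and 471 to 205 and 132 (log2 change -1.62, adjusted p = 2.09e-05). For the subunits and inhibitors of NF-kB 2 of 13 tested members rose and 4 fell, with a median log2 change of -0.35, beside 26.4% of all genes that rose and 27.3% that fell. The inhibitor NFKBIA rose from 3106 and 3202 to 4465 and 4629.7 (log2 change 0.53, adjusted p = 0.000137). NFKBIA was not called on equal totals (adjusted p = 0.0876). Its relative NFKBIE fell from 432 and 445 to 235 and 201 (log2 change -1.01, adjusted p = 0.0027).

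Genes of the circadian clock fell in number: 1 of 17 tested members rose and 13 fell, with a median log2 change of -0.67. TEF, a PAR bZIP activator driven by the clock, fell from 1209.7 and 996 to 207 and 180.0 (log2 change -2.50, SE 0.16, adjusted p = 5.3e-08). BHLHE40 fell from 1603 and 1766 to 619 and 531 (log2 change -1.55, adjusted p = 8.97e-07) and PER2, a repressor arm of the clock, fell from 989.8 and 973 to 318 and 423 (log2 change -1.42, adjusted p = 3.54e-06). PER1 was the exception and rose from 989 and 1207 to 1628 and 2756 (log2 change 0.95, adjusted p = 0.000848). Components of Polycomb and trithorax complexes, which keep genes silent or active, leaned the same way, as 1 of 23 tested members rose and 15 fell, with a median log2 change of -0.36. EZH1, a histone methyltransferase, fell from 2933 and 2800.3 to 1127 and 1074 (log2 change -1.38, SE 0.10, adjusted p = 1.32e-07), and EED, a core subunit of Polycomb repressive complex PRC2, fell from 3567 and 3900.1 to 1654 and 1950.3 (log2 change -1.05, adjusted p = 2.52e-06).

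Apoptosis genes changed in both directions, as did all genes tested, of which 26.4% rose and 27.3% fell. Of the anti-apoptotic BCL2 family 1 of 4 tested members rose and 2 fell, with a median log2 change of -0.31. MCL1, a short-lived survival protein of the BCL2 family, rose from 25198 and 25973 normalised counts in the control libraries to 38254 and 32764 with AT7519 (log2 change 0.47, SE 0.08, adjusted p = 0.000193), and the groups did not overlap. MCL1 was not called on equal totals (adjusted p = 0.167) and on quantile-normalised values (adjusted p = 0.433), and on equal mitochondrial mRNAs it was called lower (log2 change -0.45, adjusted p = 0.000433). BCL2 fell from 725 and 775 to 326 and 275 (log2 change -1.32, SE 0.15, adjusted p = 6.14e-06) and BCL2L2 fell from 6684 and 7011 to 4985 and 4787 (log2 change -0.49, adjusted p = 0.000181). Among the pro-apoptotic members of the family 3 of 11 tested members rose and 6 fell, with a median log2 change of -0.53. BCL2L11, which encodes BIM, fell from 3624 and 4091 to 985 and 859 (log2 change -2.06, SE 0.15, adjusted p = 1.15e-07). BMF fell from 1761 and 1615 to 536 and 443 (log2 change -1.79, adjusted p = 1.04e-07) and BIK fell from 496 and 516 to 164 and 132 (log2 change -1.78, adjusted p = 3.19e-06), while BAX, which permeabilises mitochondria, rose from 3092 and 3289 to 4115 and 4317 (log2 change 0.40, adjusted p = 0.00178). BAX was not called on equal totals (adjusted p = 0.612). Of the inhibitors of apoptosis 1 of 6 rose and 5 fell. XIAP, which inhibits caspases, fell from 14400.5 and 16693 to 8643 and 7104 (log2 change -0.98, adjusted p = 2.66e-06), and BIRC3 fell from 817 and 973 to 317 and 356 (log2 change -1.41, adjusted p = 5.52e-05). The member that rose was BIRC5, which encodes the mitotic protein survivin, from 12158 and 11699.5 to 17783 and 16855 (log2 change 0.54, adjusted p = 5.54e-05).

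Of targets of p53 11 of 28 tested members rose and 9 fell, with a median log2 change of 0.09, negative on equal totals and on equal mitochondrial mRNAs; over all genes 26.4% rose and 27.3% fell. GDF15, a secreted stress cytokine, rose from 28929 and 21309 to 52753 and 48031 (log2 change 1.02, SE 0.12, adjusted p = 9.26e-06) and AEN, a nuclease of apoptosis, rose from 5934 and 6342 to 10605 and 13036 (log2 change 0.94, adjusted p = 2.47e-06). XPC, a damage sensor of nucleotide excision repair, fell from 6375 and 6353 to 3346 and 2973 (log2 change -1.01, adjusted p = 5.33e-07) and SESN1 fell from 12633 and 12137 to 7403 and 6814 (log2 change -0.80, adjusted p = 2.58e-06). Across DNA repair genes 7 of 40 tested members rose and 20 fell, with a median log2 change of -0.23. ERCC4, a nuclease of nucleotide excision repair, fell from 3288 and 3714 to 793 and 901 (log2 change -2.05, SE 0.11, adjusted p = 1.47e-08). ERCC6, the transcription-coupled repair factor, fell from 2322 and 2353 to 765 and 866 (log2 change -1.52, adjusted p = 1.62e-07), and the helicase BRIP1 fell from 3233 and 2680.4 to 1125 and 1047 (log2 change -1.44, adjusted p = 2.89e-06). FANCG, of the Fanconi anaemia core complex, rose from 4712 and 4651 to 7077 and 7207 (log2 change 0.61, adjusted p = 0.000326). FANCG was not called on equal totals (adjusted p = 0.0613).

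Genes of the prostate lineage and of the androgen response moved in both directions. KLK3, which encodes prostate-specific antigen, stood at 93639 and 98725 normalised counts in control and 104020.0 and 104104 with AT7519 and was not called (log2 change 0.11, SE 0.11, adjusted p = 0.423). On the deposited scale both AT7519 libraries lay above both control libraries, and groups did not overlap in 76.2% of the genes tested. KLK3 was called lower on quantile-normalised values (log2 change -0.52, adjusted p = 0.000663) and on equal mitochondrial mRNAs (log2 change -0.80, adjusted p = 3.92e-11). Among lineage factors and coregulators 2 of 14 tested members rose and 7 fell, with a median log2 change of -0.29. GRHL2, an epithelial factor, fell from 9498 and 10974 normalised counts in the control libraries to 4243 and 5015 with AT7519 (log2 change -1.15, SE 0.11, adjusted p = 1.04e-06). FOXA1, a pioneer factor that opens chromatin, rose from 27532 and 25794 to 40586 and 35626 (log2 change 0.51, adjusted p = 6.22e-05). FOXA1 was not called on equal totals (adjusted p = 0.0584) and on quantile-normalised values (adjusted p = 0.17). Over androgen-responsive genes 5 of 25 tested members rose and 8 fell, with a median log2 change of -0.07. These counts were near the shares of all genes, of which 26.4% rose and 27.3% fell. C1orf116 fell from 17569 and 19977 to 3407 and 3294 (log2 change -2.48, SE 0.11, adjusted p = 5.41e-09) and MAF fell from 695 and 963 to 213 and 212 (log2 change -1.94, adjusted p = 3.3e-06).

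Of the SR proteins, which bind exons and promote splicing, 10 of 12 rose and 0 fell, with a median of 0.37 that was negative on equal mitochondrial mRNAs. TRA2B rose from 18300.1 and 20208 to 31731 and 36804 (log2 change 0.83, SE 0.09, adjusted p = 2.64e-06) and SRSF9 rose from 17126 and 17017 to 30217 and 28832 (log2 change 0.79, adjusted p = 6.92e-07). CLK1 and CLK3, kinases that phosphorylate SR proteins, rose from 6502 and 5472 to 13314 and 15809 (log2 change 1.28, SE 0.11, adjusted p = 5.59e-07) and from 7760.4 and 6885 to 15788 and 19951 (log2 change 1.28, adjusted p = 2.76e-07). In both, the AT7519 libraries lay above the control libraries. The related kinase DYRK2 fell from 1841 and 2005 to 639 and 425 (log2 change -1.88, SE 0.23, adjusted p = 1.23e-05), and over all CLK, DYRK and HIPK kinases 5 of 14 tested members rose and 5 fell, with a median log2 change of -0.11. Among all genes tested 26.4% rose and 27.3% fell.

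Protein folding genes changed in both directions. For heat shock genes 12 of 20 tested members rose and 3 fell, with a median log2 change of 0.39, negative on equal mitochondrial mRNAs and on quantile-normalised values. HSPE1, the mitochondrial co-chaperonin, rose from 4652 and 4645 to 8227 and 8387 (log2 change 0.84, adjusted p = 2e-06), whereas DNAJB1, a stress-inducible HSP40, fell from 7703 and 7986 normalised counts in the control libraries to 2901 and 2278 with AT7519 (log2 change -1.61, SE 0.13, adjusted p = 3.19e-07) and DNAJB4 fell from 2322 and 2792 to 805 and 861 (log2 change -1.61, adjusted p = 2.65e-07). For chaperones and the unfolded protein response of the endoplasmic reticulum 13 of 20 tested members rose and 5 fell, with a median log2 change of 0.60, negative on equal mitochondrial mRNAs. HSP90B1, the chaperone GRP94, rose from 130637 and 134536 to 235281 and 217416 (log2 change 0.77, adjusted p = 2.39e-06). HSP90B1 was not called on quantile-normalised values (adjusted p = 0.552). ERN1, the stress sensor IRE1, fell from 4201 and 3719 to 1875 and 1915 (log2 change -1.06, adjusted p = 3.65e-06), its target XBP1 fell from 12583 and 12459 to 9267 and 6633 (log2 change -0.68, adjusted p = 0.00097) and HERPUD1, an inducible degradation factor, fell from 9606 and 10745 to 5142 and 4257 (log2 change -1.12, adjusted p = 1.48e-06). Of genes of ATF4 and the integrated stress response 4 of 22 tested members rose and 10 fell, with a median log2 change of -0.36. CHAC1, which degrades glutathione, fell from 1881 and 1703 to 238 and 289 (log2 change -2.77, SE 0.24, adjusted p = 4.37e-07), STC2 fell from 13517 and 12611 to 4216 and 4108 (log2 change -1.65, adjusted p = 3.36e-08) and SHMT2, a serine enzyme of mitochondria, rose from 33861 and 34596 to 52517 and 56877 (log2 change 0.68, adjusted p = 8.03e-06).

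Of proteasome subunits 29 of 31 rose and 0 fell (median 0.50), of glycolytic enzymes 15 of 17 and 0 (median 0.61) and of aminoacyl-tRNA synthetases 15 of 20 and 0 (median 0.31). All 3 medians were negative on equal mitochondrial mRNAs, and that of the synthetases also on equal totals and on quantile-normalised values. PSMA6, a core proteasome subunit, rose from 1823 and 1891 to 3794 and 4573 (log2 change 1.17, SE 0.11, adjusted p = 7.29e-07), and PGK1, a glycolytic kinase, rose from 43052 and 46056 to 75067 and 68244 (log2 change 0.68, adjusted p = 8.93e-06). PGK1 was not called on quantile-normalised values (adjusted p = 0.0915). All 13 mitochondrially encoded mRNAs rose, with a median of 0.91; they are made by the mitochondrial polymerase and not by RNA polymerase II. MT-CO2 rose from 491119 and 447439 to 949162 and 892800.0 (log2 change 0.97, adjusted p = 2.67e-07). MT-CO2 was not called on quantile-normalised values (adjusted p = 0.442). Ribosome biogenesis held 17 rises and 7 falls among 36 genes (median 0.18, negative on equal totals, equal mitochondrial mRNAs and quantile-normalised values). Its largest rise was TAF1D, a factor of RNA polymerase I that hosts small nucleolar RNAs, from 11342 and 11814 to 29155 and 32904 (log2 change 1.42, SE 0.09, adjusted p = 3.94e-08), and POLR1B, a catalytic subunit of the same polymerase, fell from 6253 and 6801 to 3890.3 and 4284 (log2 change -0.68, adjusted p = 2.53e-05). Cholesterol synthesis held 9 rises and 2 falls among 23 genes (median 0.18, negative on equal totals, equal mitochondrial mRNAs and quantile-normalised values). For O-GlcNAc cycling and the hexosamine pathway, the target of the other agent of the series, 2 of 8 tested members rose and 0 fell. Their median log2 change was 0.08, negative on equal totals, equal mitochondrial mRNAs and quantile-normalised values. Among all genes tested 26.4% rose and 27.3% fell.

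Among 16 long non-coding RNAs 9 rose and 3 fell (median 0.49, negative on equal mitochondrial mRNAs). The rises were led by hosts of small nucleolar RNAs, spliced RNAs that translation-coupled decay keeps short-lived. SNHG15 rose from 4725 and 4662 normalised counts in the control libraries to 15726 and 18569.7 with AT7519 (log2 change 1.86, SE 0.10, adjusted p = 9.34e-09), SNHG1 rose from 12429.8 and 12509 to 33773 and 42732 (log2 change 1.61, adjusted p = 3e-08) and GAS5 rose from 26274 and 23743 to 56315 and 71384 (log2 change 1.34, adjusted p = 1.17e-07). MIR17HG, a host of microRNAs, fell from 345 and 386 to 128 and 206 (log2 change -1.16, adjusted p = 0.00283).

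**Figure D3:**
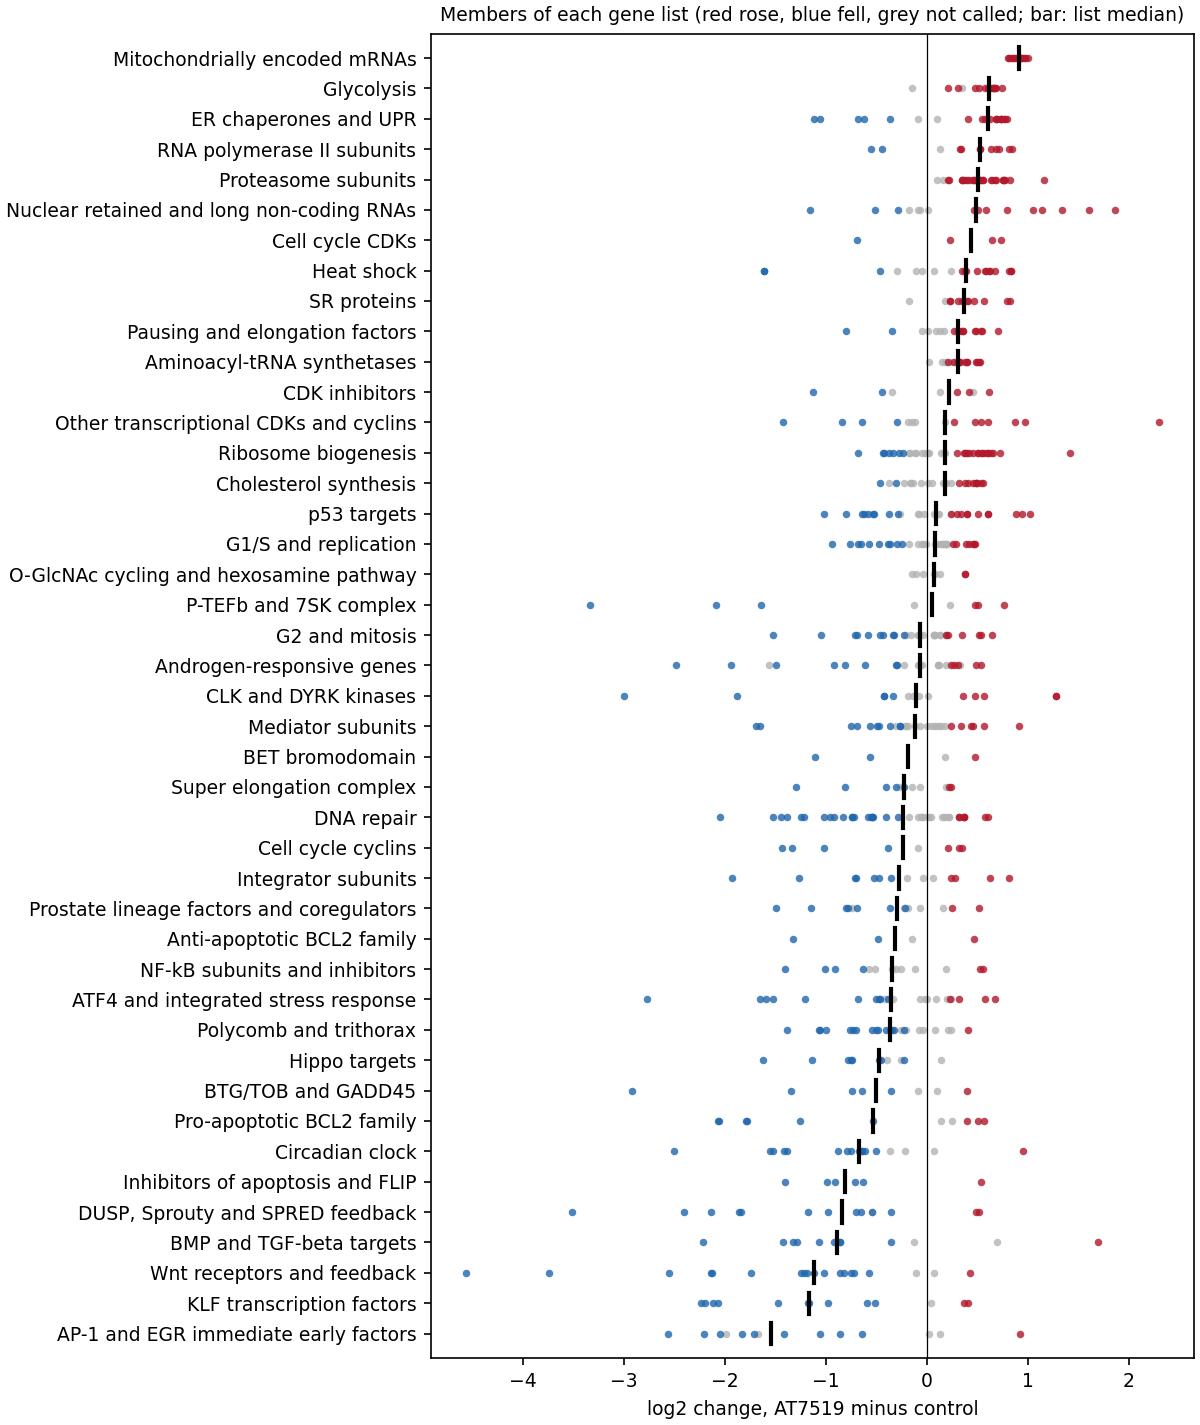
Log2 change with AT7519 (horizontal axis) of each tested member (points) of 43 gene lists (rows), with the list median as a black bar and lists ordered by it. Medians run from -1.54 for AP-1 and EGR factors to 0.91 for mitochondrially encoded mRNAs, and 19 of the 43 medians change sign on equal mitochondrial mRNAs. The mitochondrially encoded list, whose members set that scale, is among the 19.

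The change differed by kind of gene, described here by GENCODE gene type, span and exon number, which 81.7% of tested genes could be given by symbol. Small nucleolar and small nuclear RNAs and the type misc_RNA had the highest medians of the 10 types compared. Of 133 small nucleolar RNAs 86 rose and 3 fell, with a median log2 change of 1.61, and of 54 small nuclear RNAs 30 rose and 5 fell, with a median of 1.54, and of 41 genes of the type misc_RNA 24 rose and 1 fell (median 1.56). Small Cajal body RNAs held 6 rises and 0 falls among 14 (median 0.74) and microRNA precursors 31 and 9 among 92 (median 0.23). Many of the small nucleolar RNAs lie in introns of host genes such as SNHG1 and GAS5. Processed pseudogenes, which are copies of mRNAs and can share reads with their parents, held 305 rises and 46 falls among 856 (median 0.57). Antisense RNAs held 25 rises and 126 falls among 357 (median -0.43) and lincRNAs 25 and 75 among 245 (median -0.32), whereas sense intronic RNAs held 14 and 3 among 44 (median 0.51). Protein-coding genes held 3861 rises and 4020 falls among 13267, and 11.1% of them fell by at least 1 while 0.995% rose by at least 1.

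Within protein-coding genes the median change went down with the span of the gene, from 0.24 in 1120 genes under 5 kb to -0.21 in 1618 genes of 100 to 200 kb, with -0.17 in 1039 genes over 200 kb. Falls took 24.3% of genes under 5 kb and 41.7% of those of 100 to 200 kb. Large falls did not follow that order: a fall of at least 1 was seen in 16.1% of genes under 5 kb and 9.72% of those over 200 kb. They were more frequent in genes with few exons, with 26.9% of 242 single-exon genes, 31.7% of 397 genes with 2 exons and 5.8% of 1982 genes with over 20 exons. Exon number and span are related to each other and to level, and their separate parts were not tested. By mean level over the 4 libraries, which also carries gene length, 69.2% of 2137 coding genes above 10000 normalised counts rose and 10.2% fell. At 100 to 1000, 11.6% of 2518 genes rose and 41.2% fell. Falls of at least 1 varied with level too, at 18.8% of genes at 10 to 100 and 21.6% at 100 to 1000. They took 8.24% of genes at 1000 to 10000 and 0.936% above 10000.

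**Figure D4:**
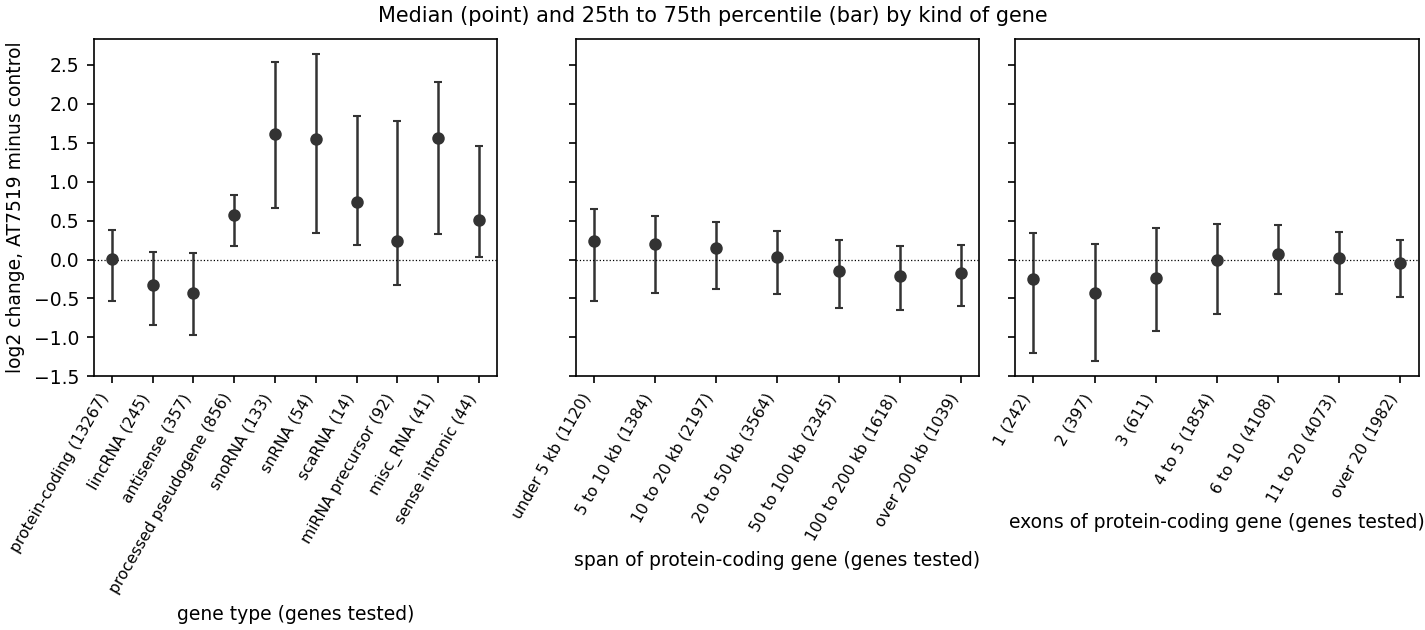
Median log2 change with AT7519 (points, vertical axis) and the range from the 25th to the 75th percentile (bars) by gene type, by span and by exon number of protein-coding genes, with the number of genes tested in brackets. Small nucleolar and small nuclear RNAs stand at 1.61 and 1.54, and coding genes with 2 exons at -0.42.

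The same inhibitor was also given to cells treated with OSMI-2, and the log2 change of combination against OSMI-2 shares no library with that of AT7519 against control. Both comparisons come from the same fit and share its estimate of the spread for each gene, so their calls are not independent. In combination against OSMI-2, 10605 genes were called (55.2%). Of the 5062 genes that rose with AT7519 alone, 4971 (98.2%) were also higher with OSMI-2 present and 4346 (85.9%) were called higher; of the 5248 that fell, 5127 (97.7%) were lower and 4276 (81.5%) were called lower. The 8622 genes called the same way in both were 81.3% of those called with OSMI-2 present. The Pearson r between both sets of log2 changes was 0.86 over genes, with a slope of 0.89; genes are no replicates of each other, so this describes the libraries only. MEPCE, at -3.33 alone, was at -3.18 with OSMI-2, HEXIM1 at -1.64 and -1.67, CDK9 at 0.77 and 0.31, and CCNL1 at 2.30 and 1.99.

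For 204 genes (1.06%) the effect of AT7519 itself differed with OSMI-2 present, tested as an interaction at an adjusted p below 0.05; 1926 genes had an unadjusted p below 0.05. In 191 the change was more negative with OSMI-2 and in 13 it was more positive, and 142 of the 191 were lower with AT7519 in both settings. Of the 43 gene lists, cholesterol synthesis held the most called interactions, 10 among 23 genes. The median log2 change of that list was 0.18 with AT7519 alone and -0.53 with OSMI-2 present. CYR61, a Hippo target, fell from 838 and 769 to 516 and 439 with AT7519 alone (log2 change -0.75, adjusted p = 0.00663) and from 712 and 660.4 with OSMI-2 to 107 and 65.7 with both agents (interaction -2.27, adjusted p = 0.00683). BTG2, an antiproliferative p53 target, fell from 7579.9 and 6648 to 4527 and 4554 with AT7519 alone (log2 change -0.64, adjusted p = 0.0232) and from 8076 and 6029.7 with OSMI-2 to 1626 and 821 with both agents (interaction -1.95, adjusted p = 0.0128). With AT7519 alone, BTG2 lost its call without any 1 of the 4 libraries (adjusted p = 0.0513 to 0.138) and by DESeq2, limma without a trend or limma without a filter, and CYR61 without control replicate 1 (adjusted p = 0.0583) and on quantile-normalised values (adjusted p = 0.0936). CITED2, which binds the coactivator CBP, fell from 3494 and 3581 to 1054 and 713 alone and from 3612 and 3109.7 with OSMI-2 to 243 and 139 with both agents (interaction -2.16, adjusted p = 0.0113). In all 3 genes the combination libraries lay below every other library. The genes were picked for large negative interactions, so this adds no support to the calls. PPP1R10 differed the other way: its fall was smaller with OSMI-2 present, from 12248 and 11687 with OSMI-2 to 1950.0 and 2467 with both agents (interaction 1.29, adjusted p = 0.00734). The count of 204 rests on single libraries: it was 5 and 2 without control replicate 1 or 2, 78 and 522 without AT7519 replicate 1 or 2, 11 and 7 without OSMI-2 replicate 1 or 2, and 438 and 55 without combination replicate 1 or 2. On the recovered reads edgeR called 191 genes and DESeq2 550, and limma without a mean-variance trend called 0, with 1771 at an unadjusted p below 0.05.

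**Figure D5:**
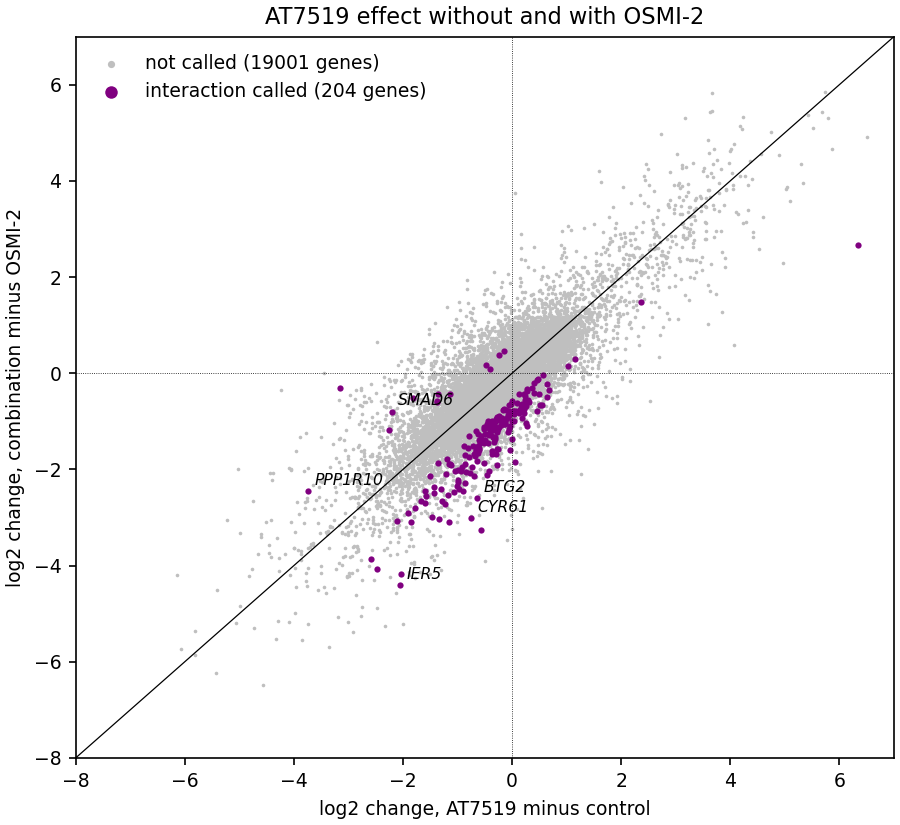
Log2 change of combination minus OSMI-2 (vertical axis) against AT7519 minus control (horizontal axis), 1 point per gene tested, with the line of equal change. The 204 genes with a called interaction (purple) lie mostly below the line, 191 against 13.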

How the data were processed

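The authors deposited 1 signal value per gene and library, which are gene read counts divided by 1 factor per library. The submitters' processing notes name the builds hg19 and GRCh37 and the tools STAR, HTSeq and DESeq2, and the labels' protocols a strand-specific TruSeq kit; for versions, annotation, counting strand and filters, nothing is given in the sources used here. Dividing by the smallest step gave whole reads for 100% of values within 0.01. Lines without a gene name (28) were left out.

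Genes with a mean of at least 10 over the 4 libraries were tested with limma 3.58.1 in R 4.3.3 on log2(value + 1), a pseudocount that understates changes of low genes. The fit used all 8 libraries, 4 group means and a trend of variance on level, and had 4 residual degrees of freedom and 10.2 from the prior. The p-values are two-sided and Benjamini-Hochberg adjusted over all genes tested; a called gene has an adjusted p below 0.05. Replicates differed by more than counting error (chi-square per degree of freedom 22.8 in control and 29.4 with AT7519). Members and lists were chosen with earlier results of these data known, and list counts and medians are descriptions. Named were the 12 largest changes each way at a mean of at least 500 with groups apart, up to 3 called rises and falls per list at a mean of at least 50, 11 fixed genes and the largest interactions; some were left out for brevity after their values were seen. Gene types, exons and overlaps come from GENCODE 29 by symbol (33844 symbols matched directly, 1336 by an older name). Of 135 genes named, 9 (DDX47, EGLN2, EIF4A1, MED26, MRPL38, NDUFV2, RAB5C, RBM4, ZNF410) share at least 20% of their exon bases with a gene on the same strand, and 8 (CCNE2, CDK4, ERCC4, HEXIM2, POLR2L, SRSF9, XPC, ZNF410) with one on the other strand. Alternatives were other pseudocounts, filters, scales and tools (edgeR 4.0.16 and DESeq2 1.42.0 on the recovered reads), a replicate block and leaving out each library. Some items are not reported here. The code was tested on simulated data.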

Additional observations from a re-analysis of the deposited data

Results flagged for a closer look

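The effect of AT7519 differed between control cells and OSMI-2-treated cells for 204 genes, by the interaction term of the limma model, and 16 of the genes named above are among them. The value given is the interaction on the log2 scale, combination minus OSMI-2 less AT7519 minus control. It was negative for IER5 (-2.35), CYR61 (-2.27), CITED2 (-2.16), BTG2 (-1.95), MIR17HG (-1.94), BTG1 (-1.68), TGIF1 (-1.06), CDKN1B (-1.01), RBM15 (-0.90), GDF15 (-0.87), CCNT1 (-0.80), BRD2 (-0.73), MCL1 (-0.60), MYC (-0.55) and positive for SMAD6 (1.41) and PPP1R10 (1.29).

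MCL1 and MYC did not fall with AT7519 alone on the deposited scale. With OSMI-2 present MCL1 was not called (log2 change -0.13, adjusted p = 0.194), while MYC was called lower (log2 change -0.42, adjusted p = 0.00034). MYC went from 13380.4 and 13845 with OSMI-2 to 9927 and 10353 with both agents. CCNT1 was at -0.56 (adjusted p = 0.000992) and GDF15, which rose alone, was at 0.15 and not called (adjusted p = 0.325).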

How the results depend on the processing

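The number of genes called for AT7519 against control stayed within 1.5 times of 10310 under each alternative; edgeR on the recovered reads called 10412 and DESeq2 10130, and leaving out 1 library gave 8298 to 10554. The scale sets the split of directions. Genes higher numbered 2041 on equal totals and 389 on equal mitochondrial mRNAs, and genes lower 8326 and 14550. Of the 10310 genes, 7289 kept call and direction on equal totals and 5637 on equal mitochondrial mRNAs, where 2829 were called the opposite way. On equal mitochondrial mRNAs the log2 change turned for BAX (-0.51), BIRC5 (-0.38), CCNL2 (-0.0397), CCNT1 (-0.68), CCNT2 (-0.41), CDK1 (-0.27), CDK4 (-0.18), CDK9 (-0.15), CDKN1A (-0.61), DUSP1 (-0.40), FANCG (-0.31), FOXA1 (-0.40), HSP90B1 (-0.15), HSPE1 (-0.0783), KLK3 (-0.80), LRP5 (-0.49), MCL1 (-0.45), MED26 (-0.00437), MYC (-0.79), NELFCD (-0.21), NFKBIA (-0.39), PGK1 (-0.23), POLR2L (-0.0749), SHMT2 (-0.24), SRSF9 (-0.13), TRA2B (-0.0864). On equal totals it turned for CCNT1 (-0.11), CDKN1A (-0.0415), KLK3 (-0.23) and MYC (-0.22). On quantile-normalised values it turned for KLK3 (-0.52) and MYC (-0.16). With an unchanged direction, calls were also lost on equal mitochondrial mRNAs for AEN (0.0226), GDF15 (0.10), JUND (0.00406), PER1 (0.0391) and PSMA6 (0.25). MT-CO2 (0.0577) lost its call too, but this scale sets the summed mitochondrial mRNAs equal, so its change was held near 0. Again with an unchanged direction, calls were lost for the genes given above on equal totals (8 genes) and on quantile-normalised values (8 genes). Relative to the median gene, list medians turned only on quantile-normalised values, for Mediator subunits (0.0115), SR proteins (-0.0305), Ribosome biogenesis (-0.0848), Heat shock (-0.0663), ER chaperones and UPR (-0.0153), Cholesterol synthesis (-0.074), Aminoacyl-tRNA synthetases (-0.095).

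Genes called for the interaction numbered 55 without a filter, 121 on equal upper quartiles, 134 on quantile-normalised values, 0 by limma without a trend, 550 by DESeq2, and 2 to 522 with 1 library left out. With the replicate number as a block they numbered 409, against 10648 called for AT7519 against control, and no gene named above lost its call under the block. Deviations of same-numbered libraries correlated by 0.02 between control and AT7519 and by 0.02 to 0.12 over all pairs of groups, so the numbers were not taken as pairing. With 2 libraries a group, leaving out 1 leaves a lone library assumed to vary like the other groups. Depth limits low genes: 3 reads equal 1.76 to 3.80 normalised counts. The causes of these differences were not tested.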

Other observations

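Families of genes that share the start of their symbol, with at least 20 members tested, gave another view of the same change. Of 62 such families, the 6 lowest medians were those of symbols starting with ZC, mostly CCCH zinc finger genes (3 of 21 rose, 14 fell, median -0.82), DUSP, the dual-specificity phosphatases (3 of 20 rose, 14 fell, median -0.52), ARHGAP, which switch off small GTPases (1 of 30 rose, 19 fell, median -0.51), ZNF, mostly zinc finger repressors (69 of 460 rose, 255 fell, median -0.50), KIF, the kinesin motors (5 of 34 rose, 19 fell, median -0.50), and TRIM, ubiquitin ligases (2 of 44 rose, 26 fell, median -0.49). The 4 highest were RPL, ribosomal proteins of the large subunit (46 of 48 rose, 0 fell, median 0.81), RPS, those of the small subunit and the RPS6K kinases (36 of 44 rose, 6 fell, all of them RPS6K genes, median 0.79), COX, the respiratory chain (17 of 21 rose, 0 fell, median 0.77), and MRPL, mitochondrial ribosomal proteins (39 of 47 rose, 0 fell, median 0.55). These medians were -0.76, -0.56, -0.41, -0.63, -0.38, -0.58, 0.85, 0.86, 0.71 and 0.49, in the same order, in combination against OSMI-2. On equal mitochondrial mRNAs the medians of RPL, RPS, COX and MRPL were -0.10, -0.12, -0.15 and -0.37.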
